A study of Mus musculus with 4 samples.

Results

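The genes described here are Txnip, its arrestin relatives Arrdc3 and Arrdc4, the thioredoxins Txn1 and Txn2, the thioredoxin reductases Txnrd1 and Txnrd2, and the transcription factors Mlxip and Mlx. They were picked by name, and the 9 genes made up 9 of the 16846 gene rows that were counted. Txnip entered the set because its level in cells with lowered Ntoco was already known to differ from the control, so that comparison and any other that uses the same control libraries are given as descriptions with no test. The other 8 genes were added as relatives, partners or regulators of Txnip. RNA was sequenced from HT22, a mouse cell line derived from hippocampal neurons, to find pathways linked to the long noncoding RNA Ntoco. The groups were cells that overexpress Ntoco (labelled Lv-Ntoco), cells with an empty vector (Vector), cells with a short hairpin RNA against Ntoco (sh-Ntoco) and cells with a control hairpin (sh-Ctrl). The labels give no treatment or time, list 1 sample a group, and number the cells from HT22 to HT25 in the titles, while naming HT22 as the line of all 4. The tables held 2 numbered libraries for each of the 4 groups. The columns of the empty vector cells are named for a pcDNA plasmid, so the way the vector was delivered is unclear. The columns of the overexpression and targeting hairpin cells carry the name AK, which was taken to mean Ntoco. Nothing says whether the 2 libraries of a group came from separate cultures. P-values therefore measure only the spread between these libraries, which may be technical.

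Thioredoxins are small proteins that reduce disulfide bonds in other proteins. Txn1 works in the cytosol and nucleus and Txn2 in mitochondria, and each is recharged by a selenium-containing reductase that draws on NADPH, Txnrd1 and Txnrd2. Txnip binds the active site of reduced thioredoxin and inhibits it. It is also an alpha-arrestin, a family of adaptors that bring ubiquitin ligases to membrane proteins, and it lowers glucose uptake by promoting internalisation of glucose transporters. Arrdc4 has a related action on glucose uptake, and Arrdc3 acts on beta-adrenergic receptors. Mlxip, also called MondoA, senses phosphorylated sugars and with its partner Mlx activates Txnip and Arrdc4 through paired E-box sequences in their promoters.

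Promoter sequences are shown for Txnip and Arrdc4, as known targets of the Mlxip and Mlx pair that varied most among the 9 genes, and for Mlx itself, whose window belongs to a start inside the span of the gene given below. Each is the 250 bases before a transcription start in RefSeq's table on GRCm38.p6, 5′ to 3′ on the gene's strand. Capitals mark the E-box CACGTG, the E-box variant CACGAG and the CCAAT box, the site of the factor NF-Y, with ATTGG as its reverse.
Txnip, chr3:96557707-96557956, plus strand: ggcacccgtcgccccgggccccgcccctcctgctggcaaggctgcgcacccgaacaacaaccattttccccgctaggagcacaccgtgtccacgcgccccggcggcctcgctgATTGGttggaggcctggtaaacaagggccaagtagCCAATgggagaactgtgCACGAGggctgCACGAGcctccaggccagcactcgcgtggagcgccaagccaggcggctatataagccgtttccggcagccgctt
Arrdc4, chr7:68749239-68749488, minus strand: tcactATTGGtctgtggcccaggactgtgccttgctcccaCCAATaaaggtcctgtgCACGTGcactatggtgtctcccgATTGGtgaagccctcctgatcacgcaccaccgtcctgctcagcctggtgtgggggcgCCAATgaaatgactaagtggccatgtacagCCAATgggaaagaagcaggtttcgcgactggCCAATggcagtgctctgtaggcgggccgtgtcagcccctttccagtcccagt
Mlx, chr11:101087040-101087289, plus strand: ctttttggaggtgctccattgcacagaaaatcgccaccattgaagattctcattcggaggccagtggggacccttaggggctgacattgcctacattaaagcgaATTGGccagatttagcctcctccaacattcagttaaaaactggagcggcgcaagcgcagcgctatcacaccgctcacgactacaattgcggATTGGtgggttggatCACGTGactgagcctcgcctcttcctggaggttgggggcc

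The Txnip window held the variant CACGAG 2 times on the gene's strand, at positions -85 to -80 and -74 to -69 from the start. This arrangement, a pair of CACGNG on 1 strand with 5 bases between them, was found on either strand in 15 of 32851 windows of the same length, or 0.0457% of them. CACGAG in either orientation was in 5.37% of windows, and 0.262% had 2 or more. Arrdc4 had the palindrome CACGTG at positions -193 to -188, and Mlx had it at -40 to -35, against 6.02% of all windows. The paired arrangement was absent from the windows of Arrdc4 and Mlx. Only the 250 bases before a start and a spacing of 5 bases were searched, so pairs elsewhere or of another form would be missed. Arrdc4 also held 6 CCAAT boxes in either orientation, a number reached or passed in 0.0578% of windows, whereas Txnip, Mlx and Mlxip had 2 each, which 10.1% of windows had or passed. The antioxidant response element TGACNNNGC, the site of the oxidative stress factor Nfe2l2, was searched for on both strands and was in 10.2% of windows. It occurred 2 times in the Mlx window, with 1 match overlapping the E-box, and in 1 of the 3 windows of Txnrd1 and in that of Arrdc4. The 13 windows of the 9 genes held no other match to the E-box, its variant or the antioxidant response element. These matches describe letters in the reference genome, and binding was not measured.

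**Figure D1:**
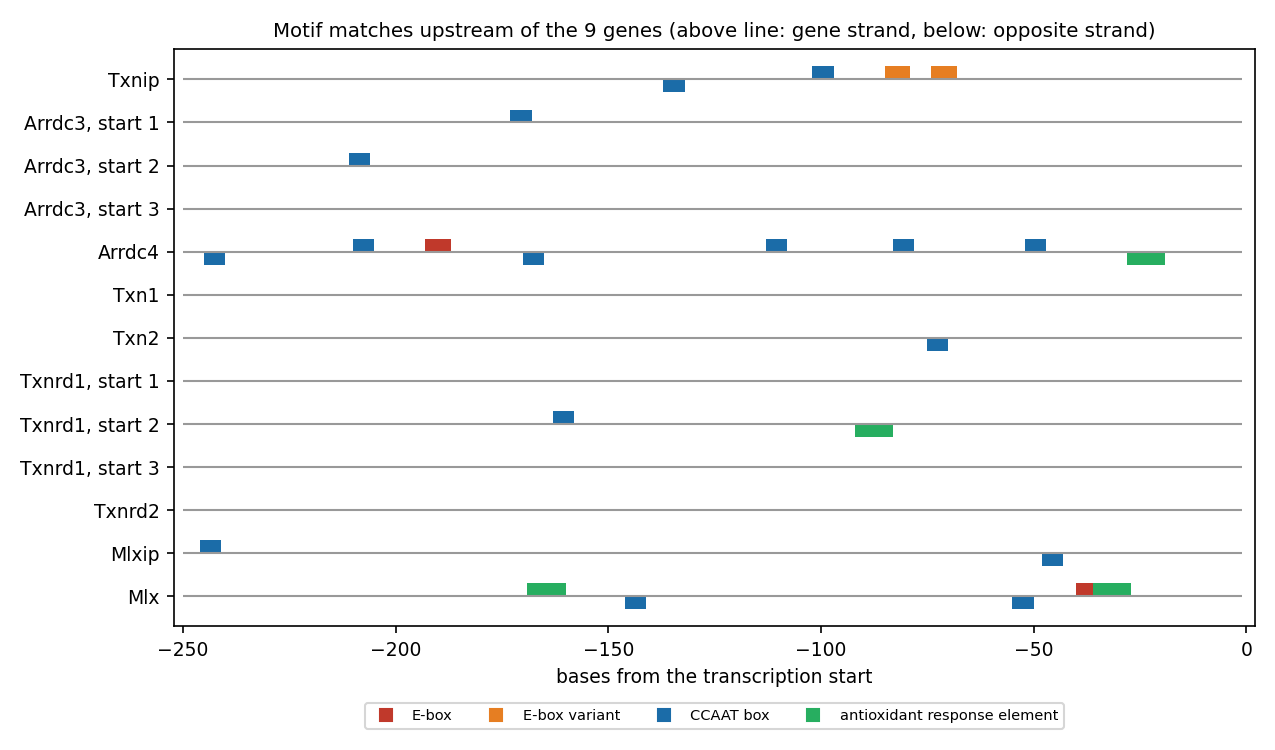
Positions of motif matches in the 13 promoter windows of the 9 genes, in bases before the transcription start (x axis), with 1 line per start site and colours for the 4 motifs. Boxes above a line lie on the gene's strand and boxes below it on the opposite one, and the palindrome CACGTG is drawn above. The paired E-box variants of Txnip and the 6 CCAAT boxes of Arrdc4 stand out.

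Libraries held 18452588 to 19859041 counts, and 12115 genes passed a filter on low counts, all 9 of the genes described here among them. The lowest of their counts was 199, for Arrdc4 in an sh-Ctrl library. Where 1 gene is followed across libraries, its level is in CPM, counts scaled to the library total and by edgeR's TMM factors. No row carried the name Ntoco (0 of 16846), so the group labels could not be checked on the target. Between the libraries of 1 group the median absolute log2 difference over genes was 0.25 in Lv-Ntoco, 0.33 in Vector, 0.41 in sh-Ntoco and 0.26 in sh-Ctrl, and 2 of the 8 libraries lay nearest to their own partner. Of 12 markers of neurons 8 had a row, and Map2, Tubb3, Nefl, Nefh, Stmn2, Slc17a7 and Gad1 stayed at or below 0.166 CPM in every library. The largest was Syp, at 0.519 to 1.03 CPM, so the defining markers of neurons were near 0 in the line. Of the fibroblast markers, Col1a1 (209 to 1127 CPM), Col1a2 (1044 to 3630 CPM) and Pdgfra (28.3 to 87.2 CPM) were high, while Col3a1 (0.107 to 3.14 CPM) and Dcn (0 to 0.0493 CPM) were not. The 6 of 7 fibroblast markers with a row summed to 2114 to 2341 CPM in Lv-Ntoco, 1334 to 2317 CPM in Vector, 1464 to 4848 CPM in sh-Ntoco and 3360 to 3393 CPM in sh-Ctrl, with Lum at 0 in every library. The part of these differences in the results below was not tested. In bulk RNA, fewer cells that express a gene and less of its RNA per cell cannot be told apart.

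Levels of different genes were compared per length, with the deposited FPKM, which scales fragments by gene length and library total. Averaged over the 8 libraries, Txn1 stood highest at 335 FPKM, and its lowest library, at 277 FPKM, lay above the highest library of any other of the 9 genes. Txn2 followed at 164 FPKM and Txnrd1 at 134 FPKM, with overlapping ranges of 149 to 189.5 FPKM and 101 to 172 FPKM. Txnip averaged 77.2 FPKM with a wide range, 16.1 to 180.1 FPKM, which overlapped both Txnrd1 above it and Mlx below it. Mlx (16.8 FPKM), Txnrd2 (15.3 FPKM), Arrdc4 (11.9 FPKM), Arrdc3 (8.66 FPKM) and Mlxip (4.96 FPKM) came last, and each overlapped its neighbours in this order. Txnip was below Txn1 in all 8 libraries. For each 100 FPKM of Txn1, Txnip had 18.4 and 12.9 FPKM in the Lv-Ntoco libraries, 38.4 and 31.8 FPKM in Vector, 20.7 and 65.0 FPKM in sh-Ntoco, and 4.11 and 6.55 FPKM in sh-Ctrl. Against 100 FPKM of Txn2 it reached 113.7 FPKM in sh-Ntoco library 2, the 1 library where Txnip passed a thioredoxin.

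Txnip, the thioredoxin inhibitor (Entrez Gene 56338, chromosome 3, 96557957 to 96561857), was lowest in the control hairpin cells and several times higher in all other cells, the empty vector cells included. It had 196 and 162 CPM in the Lv-Ntoco libraries, 345 and 265 CPM in the Vector libraries, 183 and 483 CPM in the sh-Ntoco libraries, and 45.3 and 49.7 CPM in the sh-Ctrl libraries. The sh-Ctrl libraries were close together and below the other 6, the sh-Ntoco libraries were far apart, and the Lv-Ntoco libraries lay below the Vector libraries. Group means were 179 ± 24.04 CPM in Lv-Ntoco, 305 ± 57.0 CPM in Vector, 333 ± 212 CPM in sh-Ntoco and 47.5 ± 3.09 CPM in sh-Ctrl (SD, n = 2 each). Relative to sh-Ctrl the log2 ratio was 2.81 (SE 0.43) in sh-Ntoco, a 7.003-fold difference, and 2.68 (SE 0.43) in Vector, a 6.42-fold difference. These ratios share the sh-Ctrl libraries. Without sh-Ntoco library 2 the log2 ratio of sh-Ntoco over sh-Ctrl was 1.94, and without sh-Ntoco library 1 it was 3.34. Relative to Vector, Lv-Ntoco had a log2 ratio of -0.77 (SE 0.40), which did not pass the test across all genes (edgeR quasi-likelihood, adjusted p = 0.598). A gene on the opposite strand, Gm15441, spans Txnip in GENCODE M21 and overlaps it over 3927 bases. The libraries were stranded, but no source used here gives the strand setting of the counting, so reads of Txnip and of this antisense gene cannot be told apart.

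**Figure D2:**
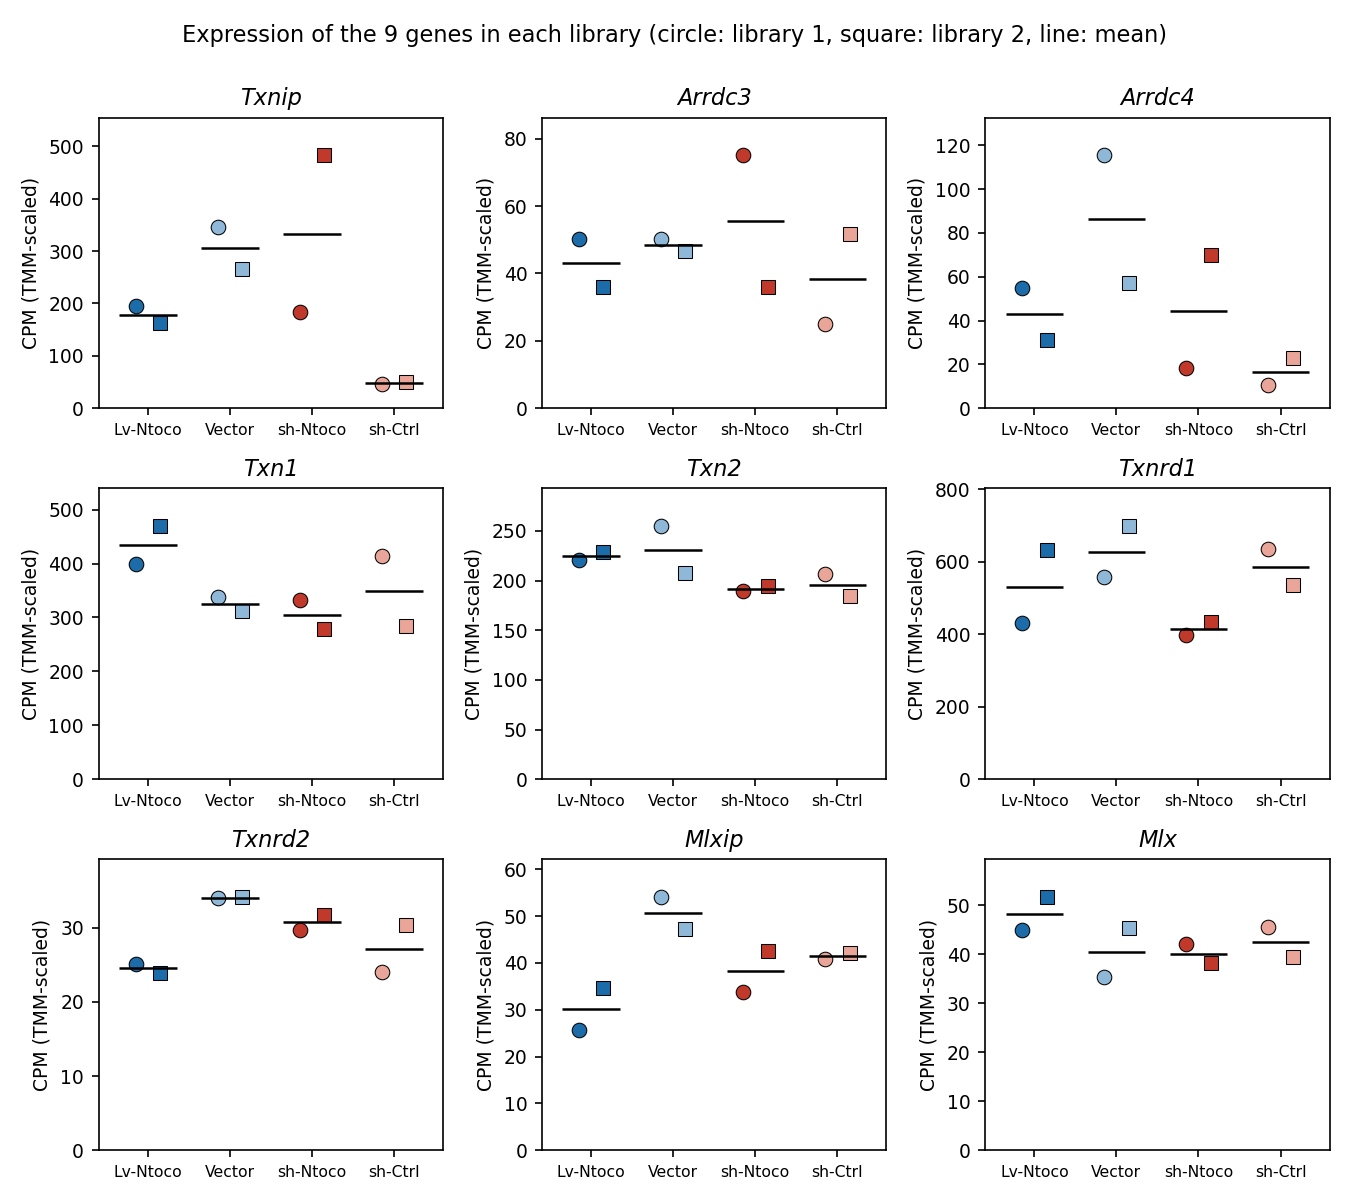
Expression of the 9 genes in CPM (y axis, from 0) in each library of the 4 groups (x axis), with circles for library 1, squares for library 2 and a line at the mean of the 2. Txnip was at 45.3 and 49.7 CPM in the sh-Ctrl libraries and at 162 CPM or more in the other 6, while the highest library was 1.38 times the lowest for Txn2 and 1.46 times for Mlx.

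Arrdc4, the alpha-arrestin that shares the sugar response of Txnip (Entrez Gene 66412, chromosome 7, 68736994 to 68749238), had its highest level in the empty vector cells. It had 55.1 and 31.3 CPM in Lv-Ntoco, 115 and 57.3 CPM in Vector, 18.2 and 70.1 CPM in sh-Ntoco, and 10.4 and 22.7 CPM in sh-Ctrl. Both Vector libraries lay above both Lv-Ntoco and both sh-Ctrl libraries, whereas 1 sh-Ntoco library fell between the sh-Ctrl libraries and the other above them. The log2 ratio was -0.998 (SE 0.66) in Lv-Ntoco over Vector, 1.41 (SE 0.68) in sh-Ntoco over sh-Ctrl and 2.38 (SE 0.69) in Vector over sh-Ctrl. The first did not pass the test (edgeR adjusted p = 0.626), and without Vector library 1 it was -0.40. The ratio of Vector over sh-Ctrl was 1.79 without Vector library 1 and 3.04 without sh-Ctrl library 2. Without sh-Ntoco library 2 the ratio of sh-Ntoco over sh-Ctrl was 0.14, and without sh-Ntoco library 1 it was 2.07. Without sh-Ctrl library 1 it was 0.96. The promoter window of Arrdc4 printed above carries 1 E-box CACGTG, found in 6.02% of windows, and that of Txnip the paired variant. Binding was not measured, and the part of these sites in the levels was not tested.

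Across the 8 libraries the log2 CPM of Arrdc4 and Txnip had a Pearson correlation of 0.84, as a description over libraries that share groups, with the sh-Ctrl libraries at the low end of both. The highest library was 11.1 times the lowest for Arrdc4 and 10.7 times for Txnip, a span wider than that of 96.0% and 95.8% of the genes tested. The median gene spanned 1.95 times. Against 100 FPKM of Arrdc4, Txnip had 502 and 728 FPKM in Lv-Ntoco, 423 and 653 FPKM in Vector, 1417 and 972 FPKM in sh-Ntoco, and 614 and 309 FPKM in sh-Ctrl. The sh-Ntoco libraries therefore held more Txnip for each unit of Arrdc4 than any other library.

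**Figure D3:**
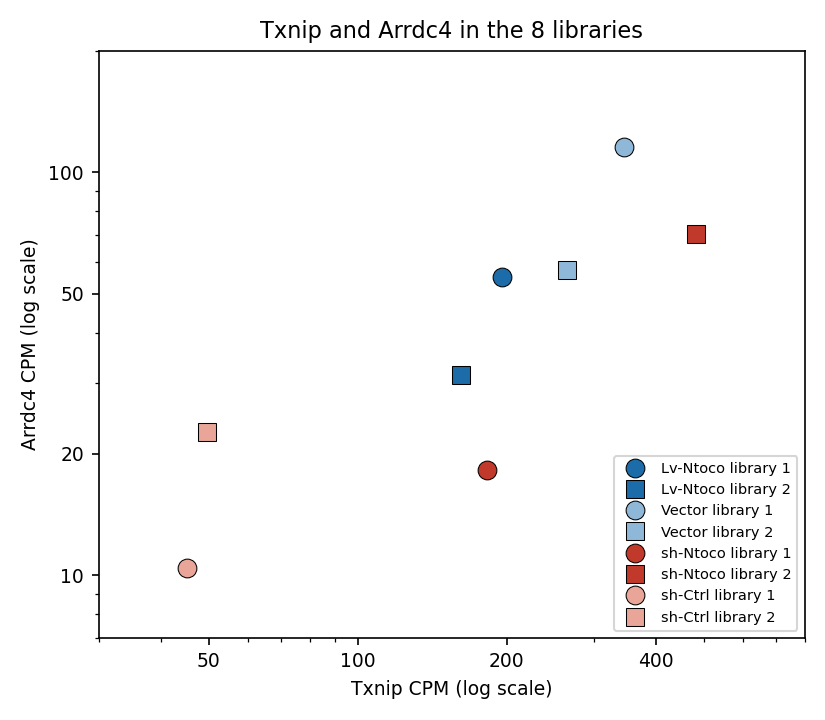
Txnip (x axis) and Arrdc4 (y axis) in CPM on log scales, with 1 point per library, coloured by group, circles for library 1 and squares for library 2. The sh-Ctrl libraries sit at the lower left, below 50 CPM of Txnip, and sh-Ntoco library 1 has low Arrdc4 (18.2 CPM) beside 183 CPM of Txnip.

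Arrdc3, the relative that acts on adrenergic receptors (Entrez Gene 105171, chromosome 13, 80883384 to 80896042), did not share the pattern of Txnip and Arrdc4. It had 50.3 and 36.1 CPM in Lv-Ntoco, 50.2 and 46.7 CPM in Vector, 75.1 and 35.9 CPM in sh-Ntoco, and 25.1 and 51.6 CPM in sh-Ctrl. All groups overlapped, and the highest and the lowest library were sh-Ntoco library 1 and sh-Ctrl library 1. Its log2 ratio was -0.16 (SE 0.43) in Lv-Ntoco over Vector (edgeR adjusted p = 0.898), 0.53 (SE 0.43) in sh-Ntoco over sh-Ctrl and 0.34 (SE 0.43) in Vector over sh-Ctrl. Without sh-Ntoco library 1 its knockdown ratio was -0.10, without sh-Ctrl library 2 it was 1.14, without sh-Ctrl library 1 it was 0.10, and without sh-Ntoco library 2 it was 0.97. The ratio of Vector over sh-Ctrl was -0.09 without sh-Ctrl library 1 and 0.94 without sh-Ctrl library 2. Arrdc4 relative to Arrdc3, per 100 FPKM, ran from 32.9 FPKM in sh-Ntoco library 1 to 312 FPKM in Vector library 1. An antisense transcript, 1700023H06Rik, overlaps Arrdc3 over 1301 bases.

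Mlxip, the sugar-sensing activator of Txnip (Entrez Gene 208104, chromosome 5, 123394521 to 123457932), was lower in the Ntoco overexpressing libraries than in the vector libraries. It had 25.6 and 34.7 CPM in Lv-Ntoco, 54.0 and 47.2 CPM in Vector, 33.8 and 42.5 CPM in sh-Ntoco, and 40.8 and 42.2 CPM in sh-Ctrl. The log2 ratio of Lv-Ntoco over Vector was -0.75 (SE 0.23), with both libraries lower, and did not pass over all genes (edgeR adjusted p = 0.598). Without any 1 library it stayed between -0.98 and -0.54. In sh-Ntoco over sh-Ctrl it was -0.12 (SE 0.23) with overlapping libraries, and in Vector over sh-Ctrl 0.29 (SE 0.23). Mlxip was 0.919-fold in sh-Ntoco and 1.22-fold in Vector, each relative to sh-Ctrl. These values are of RNA only, and the part of Mlxip in the level of Txnip was not tested.

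Mlx, the partner that Mlxip needs to bind DNA (Entrez Gene 21428, chromosome 11, 101086707 to 101092207), varied little. It had 45.0 and 51.6 CPM in Lv-Ntoco, 35.5 and 45.5 CPM in Vector, 42.1 and 38.2 CPM in sh-Ntoco, and 45.7 and 39.6 CPM in sh-Ctrl. The Lv-Ntoco range overlapped those of Vector and sh-Ctrl but lay above that of sh-Ntoco, and the other groups overlapped each other. Its log2 ratios were 0.25 (SE 0.21, edgeR adjusted p = 0.671) in Lv-Ntoco over Vector, -0.09 (SE 0.21) in sh-Ntoco over sh-Ctrl and -0.07 (SE 0.21) in Vector over sh-Ctrl. For each 100 FPKM of Mlx, Mlxip had 18.0 and 21.2 FPKM in Lv-Ntoco, 48.1 and 32.8 FPKM in Vector, 25.4 and 35.2 FPKM in sh-Ntoco, and 28.2 and 33.7 FPKM in sh-Ctrl. Mlx overlaps Psmc3ip on the opposite strand over 385 bases.

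Txn1, the cytosolic thioredoxin that Txnip inhibits (Entrez Gene 22166, chromosome 4, 57943373 to 57956411), was higher in both overexpression libraries than in both vector libraries. It had 399 and 469 CPM in Lv-Ntoco, 338 and 313 CPM in Vector, 332 and 279 CPM in sh-Ntoco, and 414 and 284 CPM in sh-Ctrl. The log2 ratio of Lv-Ntoco over Vector was 0.42 (SE 0.23, edgeR adjusted p = 0.599) and did not pass. The sh-Ntoco and sh-Ctrl ranges overlapped, with a log2 ratio of -0.19 (SE 0.23), and Vector over sh-Ctrl had -0.10 (SE 0.23). A processed pseudogene, Txn-ps1, lies on chromosome 1 and has no row of its own, so the counts of Txn1 are uncertain by the reads the copies share.

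Txn2, the mitochondrial thioredoxin (Entrez Gene 56551, chromosome 15, 77915051 to 77928994), was the steadiest of the 9 genes. It had 221 and 229 CPM in Lv-Ntoco, 255 and 208 CPM in Vector, 189 and 194 CPM in sh-Ntoco, and 206 and 184 CPM in sh-Ctrl. The highest library was 1.38 times the lowest, a span that 8.22% of tested genes stayed under. Its log2 ratios were -0.04 (SE 0.18, edgeR adjusted p = 0.942) in Lv-Ntoco over Vector, -0.03 (SE 0.18) in sh-Ntoco over sh-Ctrl and 0.24 (SE 0.18) in Vector over sh-Ctrl. For each 100 FPKM of Txn1 there were 40.0 to 61.8 FPKM of Txn2 over the 8 libraries.

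Txnrd1, the cytosolic reductase that recharges Txn1 (Entrez Gene 50493, chromosome 10, 82833951 to 82897724), was lower in the knockdown libraries. It had 432 and 632 CPM in Lv-Ntoco, 557 and 698 CPM in Vector, 397 and 434 CPM in sh-Ntoco, and 635 and 536 CPM in sh-Ctrl. Both sh-Ntoco libraries lay below both sh-Ctrl libraries, with a log2 ratio of -0.49 (SE 0.23) that stayed between -0.62 and -0.37 without any 1 library. Lv-Ntoco and Vector overlapped, with a log2 ratio of -0.24 (SE 0.23, edgeR adjusted p = 0.707), and Vector over sh-Ctrl had 0.10 (SE 0.23). Eid3, a protein-coding gene with its own row, lies within Txnrd1 on the same strand over 1305 bases, and reads there can have been counted for either gene or for none.

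Txnrd2, the mitochondrial reductase that recharges Txn2 (Entrez Gene 26462, chromosome 16, 18426417 to 18479073), had close pairs of libraries in the overexpression arm. It had 25.1 and 23.9 CPM in Lv-Ntoco, 34.0 and 34.1 CPM in Vector, 29.7 and 31.8 CPM in sh-Ntoco, and 24.04 and 30.4 CPM in sh-Ctrl. The log2 ratio of Lv-Ntoco over Vector was -0.47 (SE 0.21), with both libraries lower, and did not pass (edgeR adjusted p = 0.598). In sh-Ntoco over sh-Ctrl it was 0.18 (SE 0.21), and in Vector over sh-Ctrl 0.32 (SE 0.21). For each 100 FPKM of Txnrd1, Txnrd2 had 12.3 and 7.99 FPKM in Lv-Ntoco, 12.9 and 10.3 FPKM in Vector, 15.8 and 15.4 FPKM in sh-Ntoco, and 7.99 and 11.96 FPKM in sh-Ctrl. Both sh-Ntoco libraries held more Txnrd2 for each unit of Txnrd1 than any other library.

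**Figure D4:**
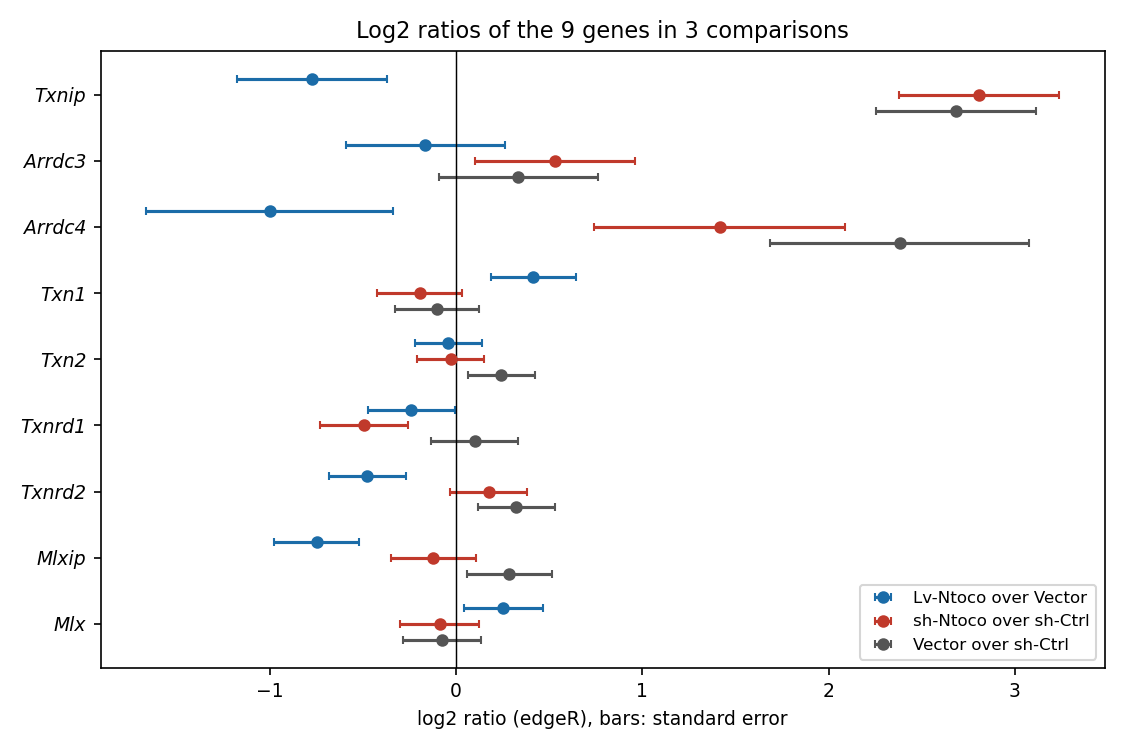
Log2 ratios (x axis) of the 9 genes (y axis) from the edgeR model in 3 comparisons, with standard errors as bars. Txnip and Arrdc4 are negative in Lv-Ntoco over Vector (-0.77 and -0.998) and positive in both comparisons with sh-Ctrl, which share its libraries.

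Lowered and raised Ntoco were each set against their own control to ask which genes differ. Lv-Ntoco over Vector shares no libraries with the comparison that chose Txnip, but its spread was estimated over all 8 libraries, the sh-Ntoco ones included. In it, 0 of the 9 genes passed an adjusted p of 0.05 in edgeR's quasi-likelihood test, as did 0 of 12115 genes (0.0%). Without adjustment 923 genes (7.62%) had p under 0.05, Mlxip alone among the 9. DESeq2's Wald test called 1 gene, none of the 9. Both Lv-Ntoco libraries lay above both Vector libraries for 1 of the 9 genes, Txn1 (24.1% of all tested genes), and below them for 4, Txnip, Arrdc4, Txnrd2 and Mlxip (23.1% of all). Over the 9 genes, 5 had groups that did not overlap, a share near the 47.2% of all tested genes.

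In sh-Ntoco over sh-Ctrl both libraries were higher for Txnip alone (15.1% of all tested genes) and lower for Txnrd1 alone (14.1%), and the other 7 overlapped. Groups did not overlap for 29.2% of all tested genes. In edgeR 0 of 12115 genes passed there (0.0%), with 378 at an unadjusted p under 0.05 (3.12%), and DESeq2 called 15. In Vector over sh-Ctrl both libraries were higher for Txnip, Arrdc4, Txn2, Txnrd2 and Mlxip (24.6% of all) and lower for 0 of the 9 (26.5% of all), beside 51.1% of all genes without overlap. EdgeR called 0 genes (0.0%) with 1520 at an unadjusted p under 0.05 (12.5%), and DESeq2 called 281. With only the 2 groups compared, edgeR called 128 genes. For the overexpression effect minus the knockdown effect edgeR called 0 genes (0.0%), with 838 at an unadjusted p under 0.05 (6.92%).

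**Figure D5:**
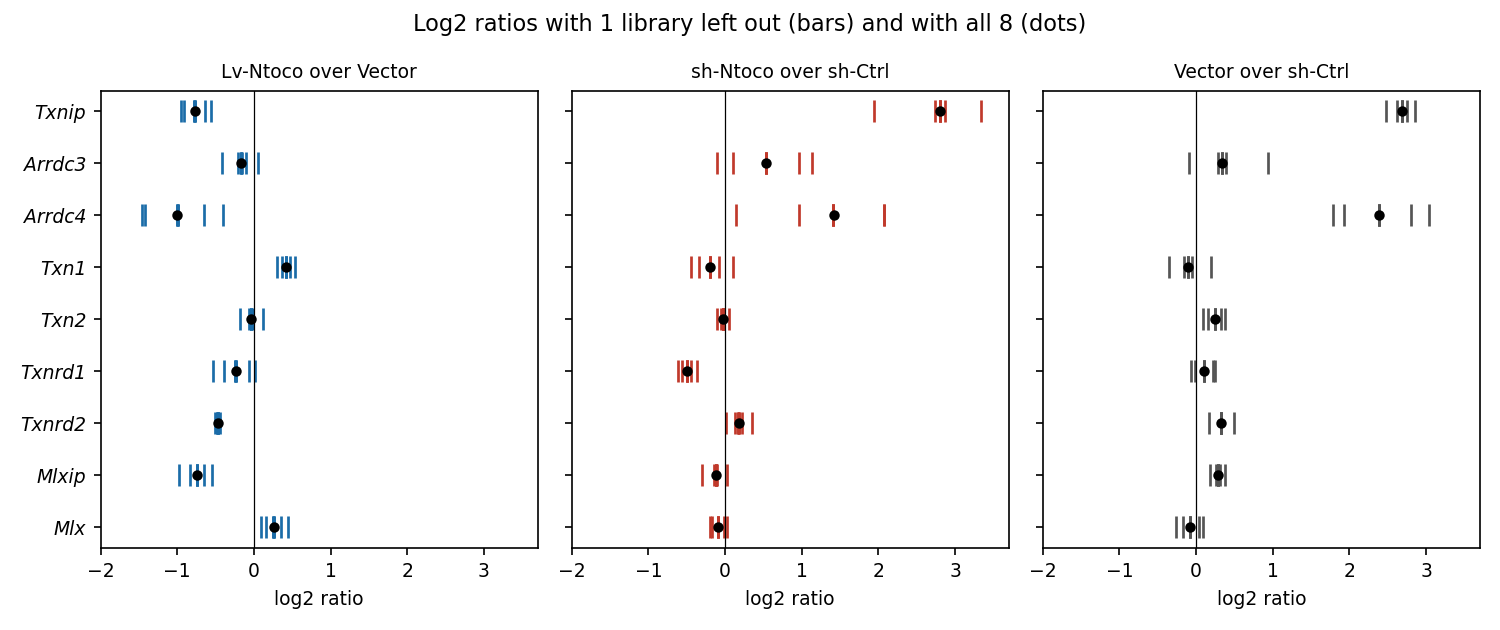
Log2 ratios (x axis) of the 9 genes (y axis) in the 3 comparisons, with a dot for all 8 libraries and a bar for each fit with 1 library left out. Txnip in Vector over sh-Ctrl stays between 2.48 and 2.86, and Arrdc4 in sh-Ntoco over sh-Ctrl runs from 0.14 to 2.07.

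Lists of genes around these 9 are described by their median log2 ratio, beside a median of -0.01 over all genes tested in Lv-Ntoco over Vector and of 0.01 in sh-Ntoco over sh-Ctrl. In every list and both comparisons 0 genes passed edgeR's adjusted test over all 8 libraries. Counts of genes with both libraries higher or lower are to be read against 24.1% higher and 23.1% lower over all genes tested in Lv-Ntoco over Vector, and 15.1% and 14.1% in sh-Ntoco over sh-Ctrl. The other genes of the thioredoxin system, which include peroxiredoxins, methionine sulfoxide reductases and ribonucleotide reductase, had 22 of 23 members tested. Both Lv-Ntoco libraries were above Vector for 11 of them and below for 3, with a median of 0.25. Srxn1, which repairs overoxidised peroxiredoxins, had 311 and 283 CPM in Lv-Ntoco, against 123 and 186 CPM in Vector, and a log2 ratio of 0.94. Its sh-Ctrl libraries had 310 and 252 CPM, and its log2 ratio in Vector over sh-Ctrl was -0.86, with both libraries lower. The redox protein Nxn had 0.79 in Lv-Ntoco over Vector and -0.47 in Vector over sh-Ctrl. In Vector over sh-Ctrl the list's median was 0.08, and -0.02 to 0.13 with 1 library left out. Both Vector libraries were higher for 8 genes and lower for 5 (24.6% and 26.5% of all tested genes). In sh-Ntoco over sh-Ctrl the list's median was 0.10. There, 3 genes had both libraries higher and 0 had both lower. The largest there were the p53-induced ribonucleotide reductase subunit Rrm2b (0.58, with overlapping libraries) and the methionine sulfoxide reductase Msra (0.43, both libraries higher).

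The glutaredoxin system, a parallel route of disulfide reduction through glutathione, had 5 of 5 genes tested, 4 of them higher and 0 lower in both Lv-Ntoco libraries (median 0.26), beside 24.1% and 23.1% of all tested genes. Glrx had 31.5 and 33.2 CPM in Lv-Ntoco, against 13.9 and 14.3 CPM in Vector (log2 ratio 1.201). Gsr, the glutathione reductase, had a log2 ratio of 0.59 in Lv-Ntoco over Vector, and -0.40 in sh-Ntoco over sh-Ctrl with both libraries lower. In Vector over sh-Ctrl, Glrx had -0.95 and Gsr -0.62, each with both libraries lower, and Glrx had 34.6 and 19.7 CPM in sh-Ctrl. The list's median there was -0.04, and -0.31 to 0.14 with 1 library left out. Both Vector libraries were higher for 1 gene and lower for 2 (24.6% and 26.5% of all tested genes). The knockdown median of the list was -0.09, with Glrx2 at 0.30. In the Nfe2l2 list of 12 genes, which counts Txn1 and Txnrd1 among its oxidative stress targets, 6 were higher and 2 lower in both Lv-Ntoco libraries (24.1% and 23.1% of all tested genes), with a median of 0.38. The quinone reductase Nqo1 had 1.06, and -1.25 in Vector over sh-Ctrl with both libraries lower. In Vector over sh-Ctrl the median of the Nfe2l2 list was -0.14, and -0.36 to 0.088 with 1 library left out. Both Vector libraries were higher for 3 genes and lower for 4 (24.6% and 26.5% of all tested genes). In the knockdown 0 were higher and 2 were lower in both libraries (15.1% and 14.1% of all, median -0.13), namely Txnrd1 and Gclm, a subunit of glutathione synthesis, at -0.87. The cystine transporter Slc7a11 had 0.55 in the knockdown, with overlapping libraries. In Lv-Ntoco over Vector it had -0.86 with both libraries lower, and in Vector over sh-Ctrl 1.47 with both libraries higher. For the synthesis of selenoproteins, the class to which both reductases belong, 7 of 7 genes were tested with medians of -0.09 in Lv-Ntoco over Vector and -0.04 in the knockdown. Sepsecs, which makes the selenocysteine transfer RNA, had -0.73 in Lv-Ntoco over Vector, with both libraries lower. In the knockdown it had 0.45 with overlapping libraries, and in Vector over sh-Ctrl 0.98 with both libraries higher. Secisbp2 had -0.51 in Lv-Ntoco over Vector, and Trnau1ap had 0.65 in the knockdown.

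Among alpha- and beta-arrestins, 7 of 8 genes were tested, Txnip, Arrdc3 and Arrdc4 included. Their median log2 ratio was -0.16 in Lv-Ntoco over Vector, and 0.058 without Lv-Ntoco library 2. In sh-Ntoco over sh-Ctrl it was 0.42, and -0.10 without sh-Ntoco library 1. Arrdc2 resembled Txnip in direction, with log2 ratios of -0.35 in Lv-Ntoco over Vector and 0.42 in sh-Ntoco over sh-Ctrl. Its libraries did not overlap in either, a pattern with these directions seen in 2.90% of tested genes. In Vector over sh-Ctrl Arrdc2 had 0.24 with both libraries higher. Arrdc1 had 0.57 in Lv-Ntoco over Vector and -0.32, with overlapping libraries, in the knockdown. The beta-arrestins Arrb1 and Arrb2 had 1.70 and 0.29 in Lv-Ntoco over Vector, and Arrb2 had -0.57 in the knockdown with both libraries lower. Arrb1 had 135 CPM in Lv-Ntoco library 1 and 36.2 CPM in library 2, against 21.4 and 31.3 CPM in Vector. Of the NEDD4-type ligases that alpha-arrestins recruit, 8 of 9 were tested, and 0 were higher and 4 lower in both Lv-Ntoco libraries (24.1% and 23.1% of all tested genes, median -0.14). Nedd4l had -0.66 and Hecw2 -0.58, and in the knockdown Nedd4l had -0.35 and Hecw2 1.26, both with non-overlapping libraries. Hecw2 rested on few reads, at 0.363 to 3.16 CPM.

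The Mondo, Myc and Max network, with Mlxip and Mlx in it, had 10 of 13 genes tested, with 1 higher and 4 lower in both Lv-Ntoco libraries (median -0.31) and 0 of either kind in the knockdown (median 0.01). Without Vector library 1 the median in Lv-Ntoco over Vector was 0.014. Mxd3, a repressor partner of Max, had 14.4 and 10.9 CPM in Lv-Ntoco, against 1.66 and 3.71 CPM in Vector, and 21.3 and 1.33 CPM in sh-Ntoco, against 22.8 and 9.08 CPM in sh-Ctrl. Myc, a competitor of Mlxip for shared targets, had a log2 ratio of -0.86, with 414 and 344 CPM in Lv-Ntoco and 584 and 792 CPM in Vector. Mga had -0.60 in Lv-Ntoco over Vector and 0.39, with overlapping libraries, in the knockdown. In Vector over sh-Ctrl it had 0.71 with both libraries higher. The sugar-responsive targets, Txnip and Arrdc4 included, had 5 higher and 5 lower of 14 in Lv-Ntoco (median 0.13) and 2 higher and 1 lower in the knockdown (median -0.12). Fgf21, a secreted metabolic factor, had 4.84 and 5.63 CPM in Lv-Ntoco, 41.7 and 9.79 CPM in Vector, 3.71 and 36.7 CPM in sh-Ntoco, and 1.05 and 9.14 CPM in sh-Ctrl. Its highest values were in Vector library 1 and sh-Ntoco library 2, the libraries with the most Txnip. The fatty acid elongase Elovl6 had log2 ratios of 1.002 in Lv-Ntoco over Vector and -0.65, with overlapping libraries, in the knockdown. In Vector over sh-Ctrl its log2 ratio was -1.32, with both libraries lower.

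Glucose uptake and phosphorylation, which Txnip restrains at the step of uptake, had 5 of 6 genes tested, 3 of them higher and 1 lower in both Lv-Ntoco libraries (median 1.199). Without Lv-Ntoco library 1 the median was 0.35. In Vector over sh-Ctrl the median was -1.03, with 0 genes higher and 4 lower in both Vector libraries (24.6% and 26.5% of all tested genes). In the knockdown it was -0.22, with 0 of either kind, and 0.16 without sh-Ntoco library 2 or 0.069 without sh-Ctrl library 2. The transporter Slc2a1 had 284 and 109 CPM in Lv-Ntoco, 70.8 and 100.3 CPM in Vector, 113 and 72.7 CPM in sh-Ntoco, and 114 and 108 CPM in sh-Ctrl. Lv-Ntoco library 1 stood far above the other 7, and library 2 was within the range of sh-Ctrl. The hexokinase Hk1 had log2 ratios of 1.23 in Lv-Ntoco over Vector, -0.46 in the knockdown and -1.03 in Vector over sh-Ctrl. Slc2a4 stayed under 1 CPM in every library. Of the inflammasome genes, to which Txnip has been linked through Nlrp3, 4 of 7 passed the filter on low counts, with medians of 0.16 in Lv-Ntoco over Vector and 0.48 in the knockdown. Casp1 had 63.2 and 52.7 CPM in Lv-Ntoco, against 23.5 and 33.2 CPM in Vector, and 92.8 and 34.1 CPM in sh-Ntoco, against 38.1 and 45.5 CPM in sh-Ctrl. Il18 stayed between 0.467 and 1.54 CPM. Among regulators of Txnip, 10 of 11 were tested, with 2 higher and 2 lower in both Lv-Ntoco libraries (median -0.19) and a knockdown median of 0.11. The kinase Stk11, which activates AMPK, had 0.44 in Lv-Ntoco over Vector and -0.39 in the knockdown, with non-overlapping libraries in each. Opposite directions in all libraries were seen in 6.53% of tested genes. In Vector over sh-Ctrl Stk11 had -0.78 with both libraries lower. It had 116 and 110 CPM in Lv-Ntoco, below the 143 and 144 CPM of sh-Ctrl. Foxo1 had -0.67 in Lv-Ntoco over Vector with both libraries lower, and the NF-Y subunit Nfya -0.55 with overlap. Klf6 had -0.59 in the knockdown with overlap.

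The 5 genes whose log2 CPM followed that of Txnip most closely over the 8 libraries were Rrad (Pearson r = 0.98), Cfap57 (0.97), Vhl (0.97), Tlr6 (0.96) and Zfp119b (0.96). They were picked as the highest among the genes tested, members aside, and are descriptions over libraries that share groups. Vhl, the ubiquitin ligase subunit that marks HIF factors for destruction, had the highest level of the 5 in CPM. It had 54.5 and 40.9 CPM in Lv-Ntoco, 60.6 and 51.0 CPM in Vector, 39.7 and 64.7 CPM in sh-Ntoco, and 26.9 and 27.7 CPM in sh-Ctrl. As with Txnip, the sh-Ctrl libraries were the lowest and sh-Ntoco library 2 the highest, over a narrower span. The small GTPase Rrad had 1.29 and 1.16 CPM in Lv-Ntoco, 1.71 and 1.75 CPM in Vector, 1.46 and 2.22 CPM in sh-Ntoco, and 0.367 and 0.467 CPM in sh-Ctrl, which are few counts. Cfap57 rested on few counts too, at 0.208 to 0.856 CPM.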

How the data were processed

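RNA was extracted with TRIzol and polyadenylated RNA was made into stranded libraries, per the labels' protocols. Per the file headers, the authors deposited 1 table of read counts, as whole numbers for each gene, and 1 of FPKM values. HISAT2, HTSeq, Cufflinks, DESeq and Trimmomatic, with the build mm10 (GRCm38), are listed in the submitters' processing notes, and their versions, the annotation and the strand setting were not given in the sources used here. In 12615 of 12615 genes counted in all libraries the deposited FPKM equalled the count divided by 1 gene length and the total, within a relative tolerance of 0.01. Each column was matched to a group by whether its name marks a control or targeting hairpin, a vector or overexpression, with AK taken as Ntoco. Genes were filtered with filterByExpr (minimum count 10), scaled by TMM and tested in edgeR 4.0.16 (R 4.3.3) with the quasi-likelihood F-test over all 8 libraries, with 4 residual degrees of freedom, a biological coefficient of variation of 28.0% and Benjamini-Hochberg adjusted p-values over 12115 genes (threshold 0.05). Standard errors are the log2 ratio divided by the root of F. Alternatives were RLE and upper-quartile scaling, no filter, DESeq2 1.42.0, only the 2 groups compared, the column number as a block, and leaving out each library. The 9 genes and the lists were chosen with earlier results of these data known. From each list, members aside, the 2 genes with the largest absolute log2 ratio in each of the overexpression and knockdown comparisons were named, and the 5 genes most correlated with Txnip. Coordinates and promoters are RefSeq's on GRCm38.p6, where 16737 of 16846 rows matched by Entrez Gene identifier and all 9 genes had a promoter window; overlaps are from GENCODE M21.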

Additional observations from a re-analysis of the deposited data

Results flagged for a closer look

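Txnip was set apart because it had opposite directions in the 2 effects, with both Lv-Ntoco libraries below both Vector libraries and both sh-Ntoco libraries above both sh-Ctrl libraries. The overexpression log2 ratio minus the knockdown log2 ratio was -3.58 for Txnip. For this difference edgeR called 0 of 12115 genes, with 838 at an unadjusted p under 0.05 and 14 called by DESeq2. Since the difference contains the comparison that Txnip was chosen on, it is given with no p for Txnip, and was not tested independently of that choice. Such opposite directions in all libraries were seen in 791 of the tested genes (6.53%), and with overexpression lower and knockdown higher in 351 (2.90%). The Vector libraries, with 345 and 265 CPM of Txnip, stood far above the sh-Ctrl libraries, with 45.3 and 49.7 CPM, so the controls of the 2 effects had very different levels.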

How the results depend on the processing

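Over 14 other settings the Txnip log2 ratio kept its sign in all 3 comparisons, and 0 of the 9 genes passed in Lv-Ntoco over Vector. Leaving out 1 library, the Txnip ratio was -0.95 to -0.57 in Lv-Ntoco over Vector, 1.94 to 3.34 in sh-Ntoco over sh-Ctrl and 2.48 to 2.86 in Vector over sh-Ctrl. Where a group is left with 1 library, that library is assumed to vary like the other groups. In Lv-Ntoco over Vector the small ratios of 3 genes changed sign. Txn2 had 0.0016 with upper-quartile factors and -0.18 to 0.11 with 1 library left out, Arrdc3 had -0.42 to 0.058 and Txnrd1 -0.54 to 0.012; the cause was not tested. With 1 library left out, signs also changed in sh-Ntoco over sh-Ctrl for Arrdc3, Txn1, Txn2, Mlxip and Mlx, and in Vector over sh-Ctrl for Arrdc3, Txn1, Txnrd1 and Mlx. Medians of the lists changed sign in Lv-Ntoco over Vector for arrestins, the Mondo network, selenoprotein synthesis, inflammasome genes and Txnip regulators, and in the knockdown for all lists but the Nfe2l2, selenoprotein and inflammasome ones. In Vector over sh-Ctrl they changed sign for all lists but the sugar-responsive, NEDD4-type ligase, glucose uptake and Txnip regulator ones. Counts of called genes differed from 0 as follows. DESeq2 called 1 gene in Lv-Ntoco over Vector, 15 in sh-Ntoco over sh-Ctrl, 281 in Vector over sh-Ctrl and 14 for the difference of effects. With only the 2 groups compared edgeR called 1 gene in Lv-Ntoco over Vector and 128 in Vector over sh-Ctrl, and without the filter 3 in the last. With 1 library left out it called 0 to 25 genes in Lv-Ntoco over Vector (25 without Lv-Ntoco library 2), 0 to 1 in sh-Ntoco over sh-Ctrl (1 without sh-Ntoco library 1), 0 to 97 in Vector over sh-Ctrl (97 and 96 without Lv-Ntoco library 1 or 2) and 0 to 1 for the difference. With 1 library left out, genes at an unadjusted p under 0.05 ranged from 176 to 1551, 173 to 1660 and 704 to 2211 in these 3 comparisons. The deviations of same-numbered libraries correlated at r = -0.22 in Lv-Ntoco and Vector, 0.36 in sh-Ntoco and sh-Ctrl and -0.12 in Vector and sh-Ctrl. The numbers show no pairing common to all groups, and whether sh-Ntoco and sh-Ctrl libraries were paired was not tested. With the replicate block 0 genes were called in each comparison, and the Txnip ratio was -0.78, 2.77 and 2.70. With crossed numbers, chosen after seeing the data, the block gave 0 calls in Lv-Ntoco over Vector and 1 in Vector over sh-Ctrl.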
